A study of Mus musculus with 2 samples.

Results

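The immediate early genes are described here by their N6-methyladenosine (m6A) sites: 10 of the 21938 protein-coding genes of the annotation, Fos, Fosb, Jun, Junb, Jund, Egr1, Egr3, Arc, Nr4a1 and Ier2, chosen by name as a set of commonly used immediate early genes and their close relatives. A site was counted for a gene when it lay inside the GENCODE M21 gene interval on the strand of the gene. GLORI (glyoxal and nitrite treatment, which deaminates adenosines without m6A so that they are read as G) was applied to poly(A) RNA, giving 2 libraries, a cerebellum library and a cerebrum library. Per the methods, both tissues came from 1 female F1r hybrid mouse at P0, the day of birth, with a C57BL/6J mother and a PWK/PhJ father. The cerebellum library listed 79355 sites and the cerebrum library 188295, of which 14 and 44 lay in the 10 genes. These amounted to 48 positions, with 10 listed in both libraries. All 48 were adenosines in the C57 reference genome, and the PWK bases around them were not analysed here.

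The site lists hold positions and strands without methylation rates or read counts, so the depth is unknown. The authors kept a position when its methylation rate was above 0.1 and its read count above 8. A position that is not listed can therefore be unmethylated, unexpressed or too thinly covered, and in whole tissue fewer cells expressing a gene and less RNA per cell cannot be told apart. With 1 library per tissue there was no replicate, no test between tissues was made, and every difference below is a difference between these 2 libraries. Of 10 cerebellar marker genes, 8 had a site in the DRACH motif in the cerebellum library and 3 in the cerebrum library. Of 11 forebrain marker genes, 4 had one in the cerebellum library and 11 in the cerebrum library. En1, En2 and Lhx5 were listed in the cerebellum library alone, whereas Emx1, Tbr1, Fezf2, Dlx1 and Dlx2 were listed in the cerebrum library alone. The cerebellar markers Atoh1 and Pax2 were listed in neither library, Zic1 had 14 DRACH sites in each, and Zic4 went the other way, with 4 in the cerebellum library and 18 in the cerebrum library. The name of the cerebrum list also carries an abbreviation shared with the cerebellum list that no label explains, and its tissue is that of its sample record.

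Immediate early genes are transcribed within minutes of a stimulus from factors that are already present in the cell, without new protein synthesis. In neurons they are used as marks of recent activity, and their mRNAs are generally short-lived, in part through AU-rich elements in the 3′ untranslated region (3′ UTR). Fos and Fosb encode proteins that pair with the Jun proteins (Jun, Junb and Jund) to form the AP-1 transcription factor. Egr1 and Egr3 encode zinc finger transcription factors, Nr4a1 an orphan nuclear receptor, Arc a synaptic protein acting on AMPA receptor traffic, and Ier2 a small nuclear protein. m6A is deposited mainly in the DRACH motif (D = A, G or T; R = A or G; H = A, C or T; the central A is methylated), often near stop codons, and it is a known mark of mRNA turnover.

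The sequences below show the DRACH sites of the immediate early genes that both libraries listed, at most 4 per gene and nearest the stop codon, since these carry the result that repeats between the libraries. They were read from GRCm38 (mm10) on the strand of the gene, 5′ to 3′. Capitals mark the 5-mer centred on each listed adenosine. Positions relative to the stop codon count the first base after it as +1.
Jun coding sequence, codons 57 and 59, chr4:95051092-95051112, minus strand: cgcgccaaGAACTcGGACCtt
Jun 3′ UTR, +298 and +307, chr4:95049950-95049978, minus strand: tgaccaaGAACTgcatGGACCtaacattc
Jun 3′ UTR, +464, chr4:95049793-95049813, minus strand: ctgcagatGAACTcccctggc
Jund coding sequence, codon 258, chr8:70699820-70699840, plus strand: atcgacatGGACAcgcaagaa
Jund 3′ UTR, +79, +93 and +103, chr8:70700160-70700188, plus strand: GGACTcgacaagccGGACCcccctTAACT
In the Jun coding sequence, the site in codon 57 was listed in both libraries and that in codon 59 in the cerebrum library alone, 6 nt downstream. The other sites in these sequences were listed in both. The 29 nt of the Jund 3′ UTR held 3 of the 4 Jund DRACH sites that both libraries shared.

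Jun and Jund, both intronless genes, carried every site of the cerebellum library and most of those of the cerebrum library. Jun had 8 cerebellum sites and 18 cerebrum sites, and Jund had 6 and 13. Egr3 had 7, Nr4a1 4 and Junb 2 sites, all of them in the cerebrum library. No site of any motif was listed in Fos, Fosb, Egr1, Arc or Ier2 in either library. Thus 2 of 10 genes had a listed site in the cerebellum, against 41.2% of all coding genes, and 5 of 10 in the cerebrum, against 57.4%. For sites in the DRACH motif the counts were again 2 of 10, against 35% of coding genes, and 5 of 10, against 45.2%. The libraries differed in how many sites they listed, with 2.37 cerebrum sites per cerebellum site over all sites and 3.14 over the immediate early genes. For DRACH sites alone these ratios were 1.79 and 3.2.

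**Figure D1:**
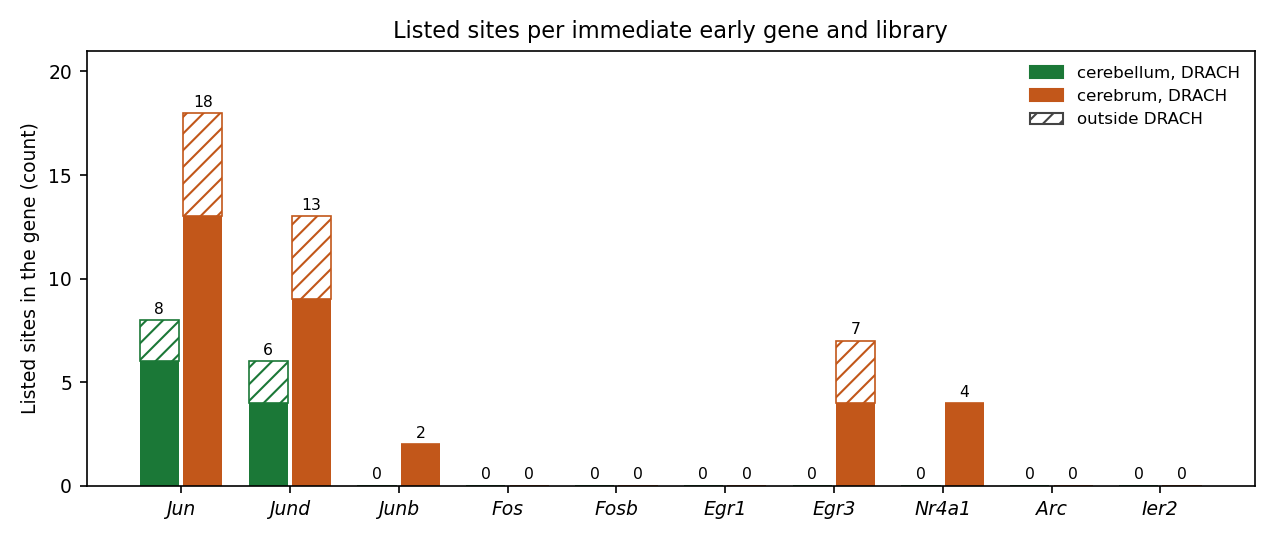
Number of listed sites (y axis) in each of the 10 immediate early genes (x axis) in the cerebellum library (green) and the cerebrum library (orange). Filled bars are DRACH sites, hatched bars other sites, and the number above each bar is the sum. Jun and Jund have bars in both libraries, Junb, Egr3 and Nr4a1 in the cerebrum alone, and the other 5 genes have none.

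Most member sites were in the DRACH motif. In the cerebellum, 10 of 14 were DRACH (71.4%, Wilson 95% interval 45.4 to 88.3%), against 62.1% of all listed sites on chromosomes 1 to 19, X and Y. In the cerebrum, 32 of 44 were DRACH (72.7%, 58.2 to 83.7%), against 46.8% of all listed sites. All listed sites include intronic ones and ones outside genes. The intervals cover counting error over sites only, and neighbouring sites in a transcript are not independent. Of the 10 DRACH sites in the cerebellum, 9 were also listed in the cerebrum, whereas 9 of the 32 in the cerebrum were also listed in the cerebellum (28.1%, 15.6 to 45.4%). Over all DRACH sites these shares were 81.0% and 45.3%. Jun and Jund held the 10 shared sites, 5 each, of which 9 were DRACH.

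By transcript region, sites were assigned to the longest isoform with a complete coding sequence that covers them. In the cerebrum, 5 of the 44 sites were in a 5′ UTR (11.4%, 4.95 to 24.0%), against 2.04% of all sites. The coding sequence held 17 (38.6%, 25.7 to 53.4%) against 27.1% of all sites, and the 3′ UTR 21 (47.7%, 33.8 to 62.1%) against 33.9%. The intervals for the coding sequence and the 3′ UTR contain the share of all sites. The remaining site was intronic, where 24.0% of all sites lay. In the cerebellum, 1 of 14 sites was in a 5′ UTR (7.14%, 1.27 to 31.5%), against 2.08% of all sites. The coding sequence held 6 (42.9%, 21.4 to 67.4%), against 30.2%, and the 3′ UTR 7 (50%, 26.8 to 73.2%), against 41.5%. None was intronic (interval 0 to 21.5%), where 16.7% of all cerebellum sites lay. Each of these cerebellum intervals contains the share of all sites. The 5′ UTR sites came from Jun, with 4 in the cerebrum and 1 in the cerebellum, and from Egr3, with 1.

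**Figure D2:**
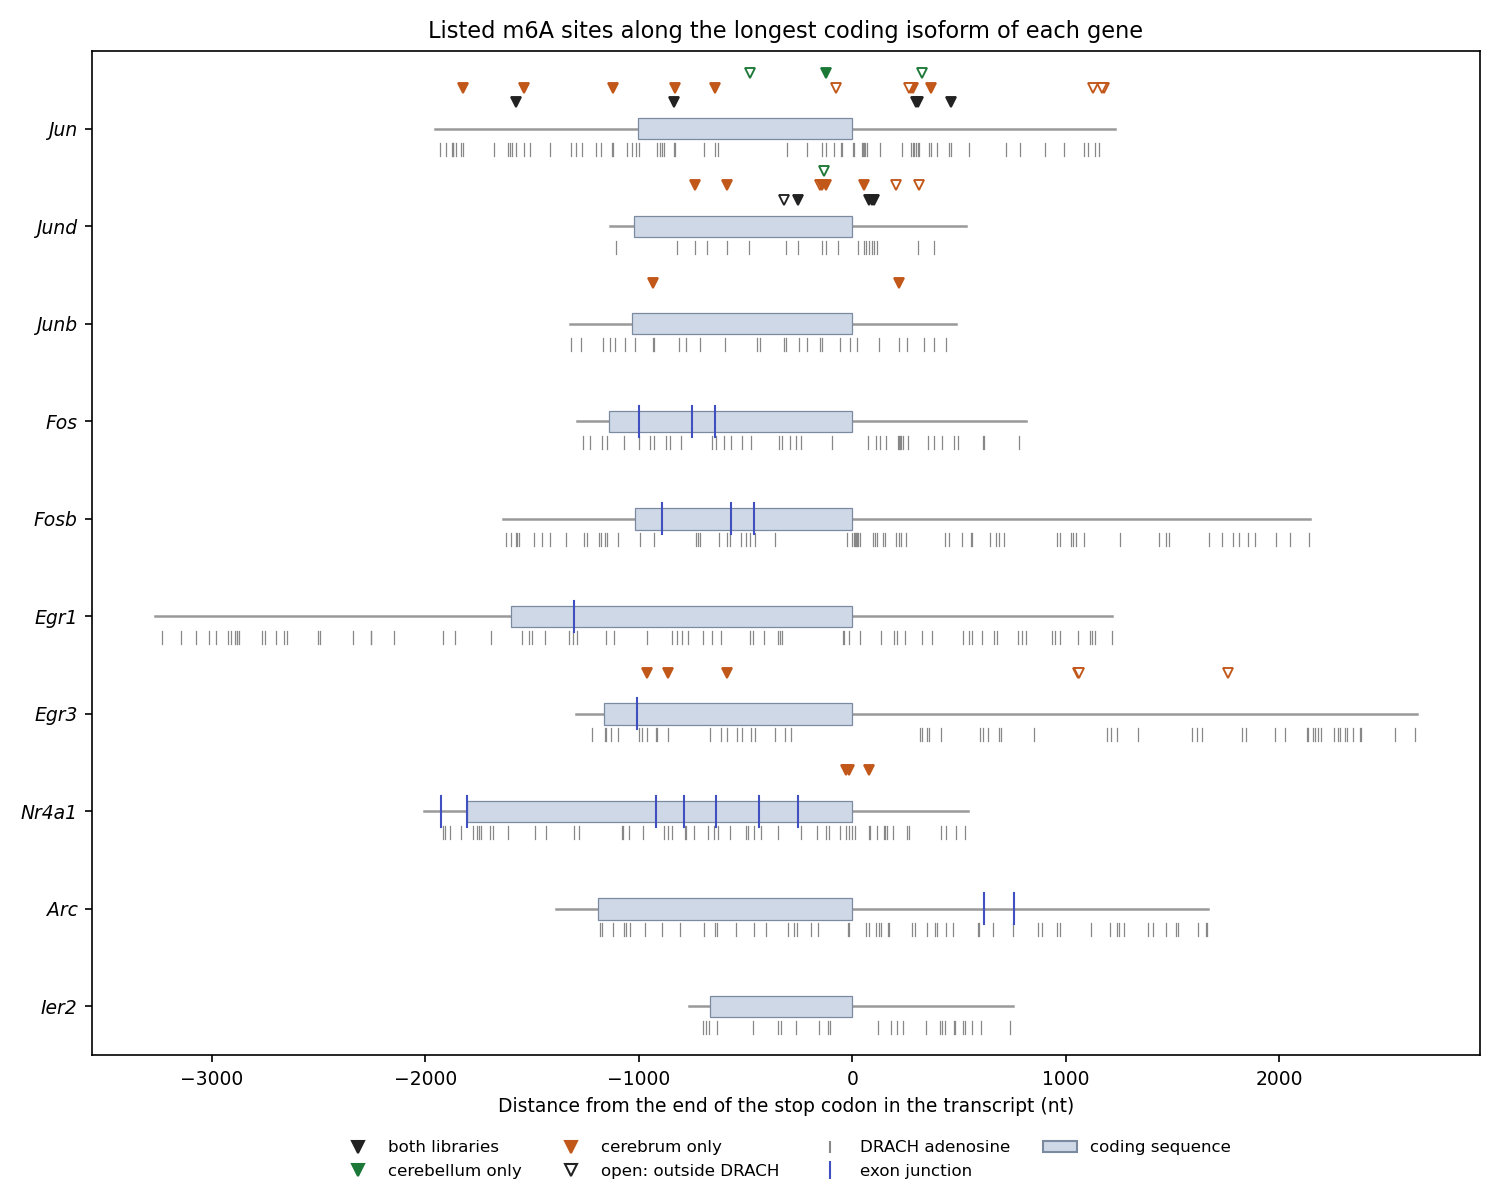
Listed sites (triangles) along the longest coding isoform of each gene, with the distance from the end of the stop codon on the x axis (nt). Black, orange and green triangles are sites in both libraries, in the cerebrum alone and in the cerebellum alone, open triangles are outside DRACH, grey ticks are DRACH adenosines, boxes are coding sequences and blue lines are exon junctions. DRACH adenosines are spread along all 10 transcripts, whereas triangles are on 5 of them, most on Jun and Jund. Of the DRACH sites, the intronic one of Nr4a1 and the one on another isoform of Egr3 are not drawn.

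Jun, the AP-1 subunit that can also pair with itself, is a gene of 1 exon at chr4:95049034-95052222 on the minus strand, with a transcript of 3189 nt. Its 21 positions comprised 5 in both libraries, 13 in the cerebrum alone and 3 in the cerebellum alone, and 14 were DRACH. The 5 shared positions were all DRACH and lay in the 5′ UTR at -574 from the first base of the start codon, in codon 57, and at +298, +307 and +464 in the 3′ UTR. Of these, 4 had the 5-mer GAACT and the one at +307 had GGACC. Jun holds 7 GAACT adenosines, and 4 were listed in the cerebellum and 5 in the cerebrum. It also holds 7 GGACT adenosines, of which 0 were listed in the cerebellum and 2 in the cerebrum.

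The 3′ UTR sites of Jun were grouped. In the cerebrum, 4 DRACH sites at +274, +285, +298 and +307 lay within 50 nt, and 4.82% of the 9628 coding genes with a DRACH site in either library had as many sites in a window of that length. This window was chosen after the values were seen. Nearer the stop codon few sites were listed. Of 13 DRACH adenosines within 200 nt on either side of the Jun stop codon, 0 were listed in the cerebrum and 1 in the cerebellum, in codon 294. Over all coding genes with a listed DRACH site, 19.8% of the DRACH adenosines in this window were listed in the cerebrum and 14.8% in the cerebellum. Over the intronless ones, as Jun is, the shares were 28.3% and 21.1%. The Jun intervals were 0 to 22.8% in the cerebrum and 1.37 to 33.3% in the cerebellum. Within 400 nt the Jun counts were 5 of 25 in the cerebrum (20%, 8.86 to 39.1%) and 3 of 25 in the cerebellum (12%, 4.17 to 30.0%). Over all such genes the shares were 16.9% and 12.7%, and over the intronless ones 27.4% and 20.5%. The Jun intervals at this width contain each of these shares.

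Upstream of its start codon, Jun had 4 DRACH sites in the cerebrum, of which the 1 at -574 was also listed in the cerebellum. The others were at -821, -533 and -117. The 5′ UTR of Jun is 951 nt long and holds 26 DRACH adenosines, so that 15.4% (6.15 to 33.5%) were listed in the cerebrum. Over all coding genes with a listed DRACH site this share was 5.07%, and over the intronless ones 6.61%. The Jun interval contains the intronless share but not that of all such genes. In the cerebellum, 1 of 26 was listed (3.85%, 0.682 to 18.9%), against 4.44% over the intronless ones. This interval contains the cerebellum shares of both gene sets. The 7 non-DRACH positions of Jun were each listed in 1 library, 5 in the cerebrum and 2 in the cerebellum. They included 3 close together at +1130, +1170 and +1178, near the end of the annotated 3′ UTR of 1233 nt.

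Jund, known for steadier expression than its relatives Jun and Junb, is a gene of 1 exon at chr8:70698949-70700616 on the plus strand, with a transcript of 1668 nt. Its 14 positions comprised 5 in both libraries, 8 in the cerebrum alone and 1 in the cerebellum alone. Jund holds 20 DRACH adenosines, and 4 (20%, 8.07 to 41.6%) were listed in the cerebellum and 9 (45%, 25.8 to 65.8%) in the cerebrum. In the cerebrum this share was above that of 99.6% of the 9323 coding genes with a listed DRACH site and above that of 94.3% of the 230 such genes without introns. In the cerebellum it was above 94.7% and 73.5% of such genes. In contrast to Jun, 6 of the 10 DRACH adenosines within 200 nt of the Jund stop codon were listed in the cerebrum and 3 of 10 in the cerebellum.

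The 3′ UTR of Jund had its DRACH sites at +53, +79, +93 and +103, and the first of these was listed in the cerebrum alone. Its coding sequence had DRACH sites in codons 97, 146, 258, 296 and 301, of which codon 258 was listed in both libraries and the others in the cerebrum alone. A site with the 5-mer GGACG in codon 235, outside DRACH by its last base, was listed in both libraries and was the only shared member site outside the motif. The other non-DRACH positions of Jund, in codons 293 and 299 and at +207 and +312, were each listed in 1 library.

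Jun had more sites than Jund but a smaller share of its DRACH adenosines, with 6 of 72 (8.33%, 3.88 to 17.0%) in the cerebellum and 13 of 72 (18.1%, 10.9 to 28.5%) in the cerebrum. The order in the cerebrum was Jund, Jun, Junb (2 of 30, 6.67%, 1.85 to 21.3%), Nr4a1 (3 of 56, 5.36%, 1.84 to 14.6%) and Egr3 (3 of 59, 5.08%, 1.74 to 13.9%). The intervals of each neighbouring pair in this order overlapped. Among coding genes with a listed DRACH site the median shares were 4.65% (cerebellum) and 6.76% (cerebrum), and among intronless ones 9.09% and 13.2%. The Jun share in the cerebrum was above 86.0% of all such genes and 60.9% of the intronless ones, and the Junb, Nr4a1 and Egr3 shares were above 49.1%, 41.1% and 39.3% of all such genes. Junb, whose coding isoform has no intron, was above 26.1% of the intronless ones.

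**Figure D3:**
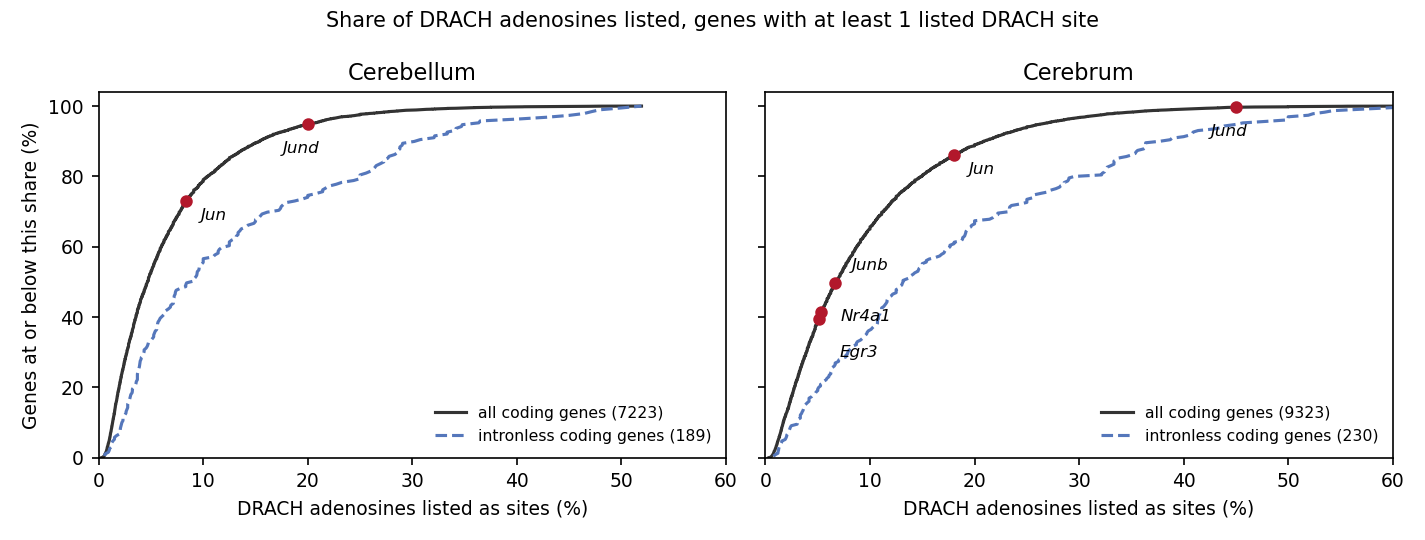
Cumulative share of genes (y axis, %) by the percentage of their DRACH adenosines listed as sites (x axis), for all coding genes with at least 1 listed DRACH site (solid) and for the intronless ones (dashed), in the cerebellum (left) and cerebrum (right) library. Red points mark the immediate early genes on the curve of all coding genes. Jund is at 20% and 45%, Jun at 8.33% and 18.1%, and the intronless curve runs to the right of the curve of all genes.

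Junb, a Jun family member that is strongly inducible, is annotated at chr8:84974484-84978718 on the minus strand, where its coding isoform of 1809 nt has 1 exon and another, non-coding transcript of the gene lies downstream. It was listed in the cerebrum alone, with a site in codon 33 and another at +219. Nr4a1 (chr15:101254269-101274795, plus strand, 8 exons) had 4 DRACH sites in the cerebrum and 0 in the cerebellum. The 3 exonic ones were in its last exon, in codons 592 and 597 and at +77, so all 3 were within 200 nt of the stop codon, where Nr4a1 holds 15 DRACH adenosines. The fourth was in an intron near the 5′ end of the gene, at position 101254587, with the 5-mer GGACA. Egr3 (chr14:70077203-70082614, plus strand, 2 exons) had 7 sites in the cerebrum and 0 in the cerebellum, with DRACH sites in codons 67, 100 and 193. The fourth Egr3 DRACH site, GAACT at position 70077312, was in the 5′ UTR of another isoform, and the 3 sites in the 3′ UTR were outside DRACH. The exonic DRACH sites on these reference isoforms are shown next as sequences, chosen after the values were seen because the cerebrum library alone listed them.
Junb, codon 33, chr8:84978321-84978341, minus strand: acgactacAAACTcctgaaac
Junb, +219, chr8:84977166-84977186, minus strand: ctgcaaagAGACTgaattcat
Egr3, codon 67, chr14:70078932-70078952, plus strand: ccaatccgGAACTctcttatt
Egr3, codon 100, chr14:70079030-70079050, plus strand: tggtgccaGGACAacatcatt
Egr3, codon 193, chr14:70079309-70079329, plus strand: atgattccTGACTacaacctg
Nr4a1, codons 592 and 597, chr15:101274215-101274243, plus strand: ttgtGGACAagatctttatGGACAcattg
Nr4a1, +77, chr15:101274319-101274339, plus strand: tagcccacGGACCcccagacc
The Nr4a1 sites in codons 592 and 597 shared the 5-mer GGACA and were 15 nt apart.

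Across the members with a listed DRACH site, 5-mers differed in how often they were listed. Of the GAACT adenosines in these genes, 4 of 7 were listed in the cerebellum, against 15.5% over all coding genes with a listed DRACH site, and 6 of 15 in the cerebrum (40%), against 20.4%. Jun accounted for 4 of the 4 and for 5 of the 6. Of the GGACT adenosines, the cerebellum library listed 1 of 11 (9.09%), against 16.4%, and the cerebrum library 4 of 20 (20%), against 23.5%. All 4 were in Jun and Jund, 2 in each. Of the 21 TGACC adenosines in these genes, 0 were listed in the cerebrum. Over all such coding genes the share was 1.86%, so low that 0 of 21 shows no difference from them.

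The genes with introns allow a comparison with exon junctions, near which m6A is known to be sparse. Nr4a1 and Egr3 had 6 DRACH sites on their reference isoforms, all in the cerebrum, and 1 of them, the Egr3 site in codon 67, was within 100 nt of a junction, at 47 nt. The other 5 were between 145 and 424 nt from the nearest junction. These genes hold 32 DRACH adenosines within 100 nt of a junction, of which 3.12% were listed, against 2.11% over all coding genes with a listed DRACH site. The coding isoforms of Jun, Junb, Jund and Ier2 have no junction, and Ier2 had no listed site.

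Jun, Junb and Jund are paralogs, and their coding sequences were aligned codon by codon to ask whether sites were at the same base. Jun and Jund were identical at 62.0% of 308 aligned residues, Jun and Junb at 54.4% of 316, and Junb and Jund, a pair added after the data were seen, at 51.9% of 312. Jun had 6 coding sites, Jund 8 and Junb 1. Only 1 aligned base was listed in both genes of a pair, in codon 294 of Jun and codon 301 of Jund, in the part of the sequence that encodes the C-terminal bZIP domain. Jun was listed there in the cerebellum alone and Jund in the cerebrum alone, so no library listed both. A second pair of aligned codons, 120 of Jun and 146 of Jund, had a site in each gene in the cerebrum library, at bases 1 nt apart in the alignment. In Junb the codon aligned with codon 294 of Jun and codon 301 of Jund is 304. There the 5-mer is outside DRACH and no site was listed. The 3 aligned stretches, shown because they hold the base of codons 294, 301 and 304, were as follows.
Jun, codon 294, chr4:95050381-95050401, minus strand: aaagcgcaAAACTccgagctg
Jund, codon 301, chr8:70699949-70699969, plus strand: aAAAGCcaGAACAccgagctg
Junb, codon 304, not listed, chr8:84977509-84977529, minus strand: aaggctgagaacgcggggctg
In the Jund stretch, the first capitals mark a non-DRACH site in codon 299 that the cerebellum library alone listed. Of the 9 DRACH coding sites in Jun or Jund, 3 had a DRACH 5-mer at the aligned base of the other gene. These were the sites in codon 294 of Jun and codon 301 of Jund, which are the same aligned base, and codon 296 of Jund. For Jun against Junb 0 of 5 did.

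**Figure D4:**
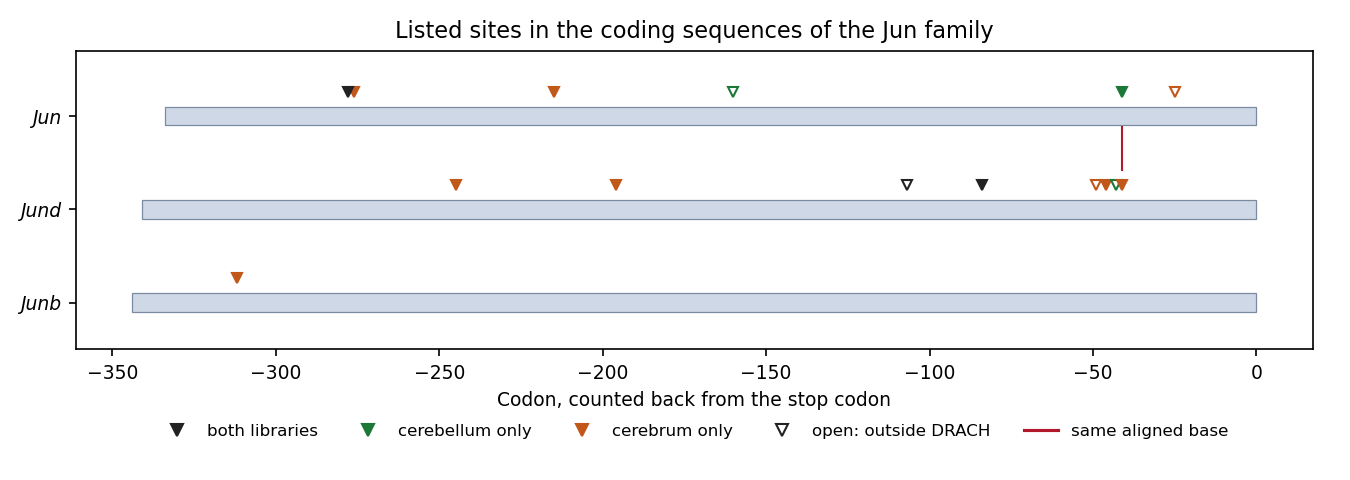
Listed sites (triangles) in the coding sequences of Jun, Jund and Junb, with codons counted back from the stop codon on the x axis. Black, orange and green mark sites in both libraries, in the cerebrum alone and in the cerebellum alone, and open triangles are outside DRACH. The red line joins codon 294 of Jun to codon 301 of Jund, the only aligned base listed in both.

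The paralogs with listed sites in 1 gene or none gave further contrasts. Fos and Fosb, identical at 55.6% of 313 aligned residues, had 0 sites. Egr1 and Egr3 were identical at 53.3% of 375. The Egr3 site in codon 193 falls on a DRACH 5-mer in Egr1 as well, in codon 252, which was not listed.

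The 5 genes without a site were not short of the motif. Fos (chr12:85473890-85477273, plus strand, 4 exons) holds 41 DRACH adenosines on its longest coding isoform, and 4 of them are GGACT. Fosb (chr7:19302696-19310051, minus strand, 4 exons) holds 74, 5 of them GGACT. Egr1 (chr18:34859823-34864984, plus strand, 2 exons) holds 75, 5 of them GGACT. Arc (chr15:74669083-74672570, minus strand, 3 exons) holds 57, 3 of them GGACT, and Ier2 (chr8:84661331-84662852, minus strand, 1 exon) holds 26, 5 of them GGACT. None was listed, and whether these mRNAs were too thinly covered for a call was not tested, since no reads are given. The upper end of the Wilson 95% interval of the listed share ran from 4.87% for Egr1 to 12.9% for Ier2 in each library, counting adenosines as independent. No site was listed on the opposite strand of any of the 10 genes or within 1000 nt downstream of them.

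AU-rich elements of immediate early mRNAs often contain the pentamer ATTTA, which was searched on the strand of the gene in the 3′ UTR of the longest coding isoform. It occurred 7 times in Egr3, 4 times each in Fos and Jun, 3 times in Nr4a1, 2 times each in Junb and Egr1 and once each in Fosb and Jund. Arc and Ier2 had 0. Over 20714 coding genes, 64.8% of the 3′ UTRs hold it. The nearest distance from a listed DRACH site in the 3′ UTR to an ATTTA was 33 nt in Junb, 185 nt in Jund, 237 nt in Jun and 373 nt in Nr4a1. All listed DRACH sites in these 3′ UTRs preceded the first ATTTA, which began at +701 in Jun, +288 in Jund, +252 in Junb and +450 in Nr4a1.

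Of 32 further immediate early genes, 13 had a listed DRACH site in the cerebellum, where 35% of all coding genes had one, and 19 in the cerebrum, against 45.2%, with 12 in both and 12 in neither. The shares of all coding genes listed in both libraries, in neither or in 1 alone are not given here. Nothing particular to these genes is read from the counts. Counts cover the whole gene interval, with introns and all isoforms, so they do not describe a particular mRNA of a gene. The highest were in Homer1, Fosl2 and Nr4a2. Homer1, a synaptic scaffold gene, had 11 in the cerebellum and 21 in the cerebrum. Fosl2, an AP-1 partner, had 0 and 21, and the nuclear receptor gene Nr4a2 had 12 and 19. Its relative Nr4a3 had 0 and 19, and thus Fosl2, Nr4a3, Klf10, Klf4, Btg2, Npas4 and Plk3 were listed at DRACH in the cerebrum alone, as were Egr3, Nr4a1 and Junb. Ier5l, with 1 and 0, was the reverse. The 12 genes without a DRACH site were Egr2, Egr4, Fosl1, Ier3, Klf2, Maff, Atf3, Ccn1, Ccn2, Gadd45b, Gadd45g and Csrnp1. By family, then, Fos, Fosb and Fosl1 had 0 DRACH sites where Fosl2 had 21, and Egr1, Egr2 and Egr4 had 0 where Egr3 had 4.

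**Figure D5:**
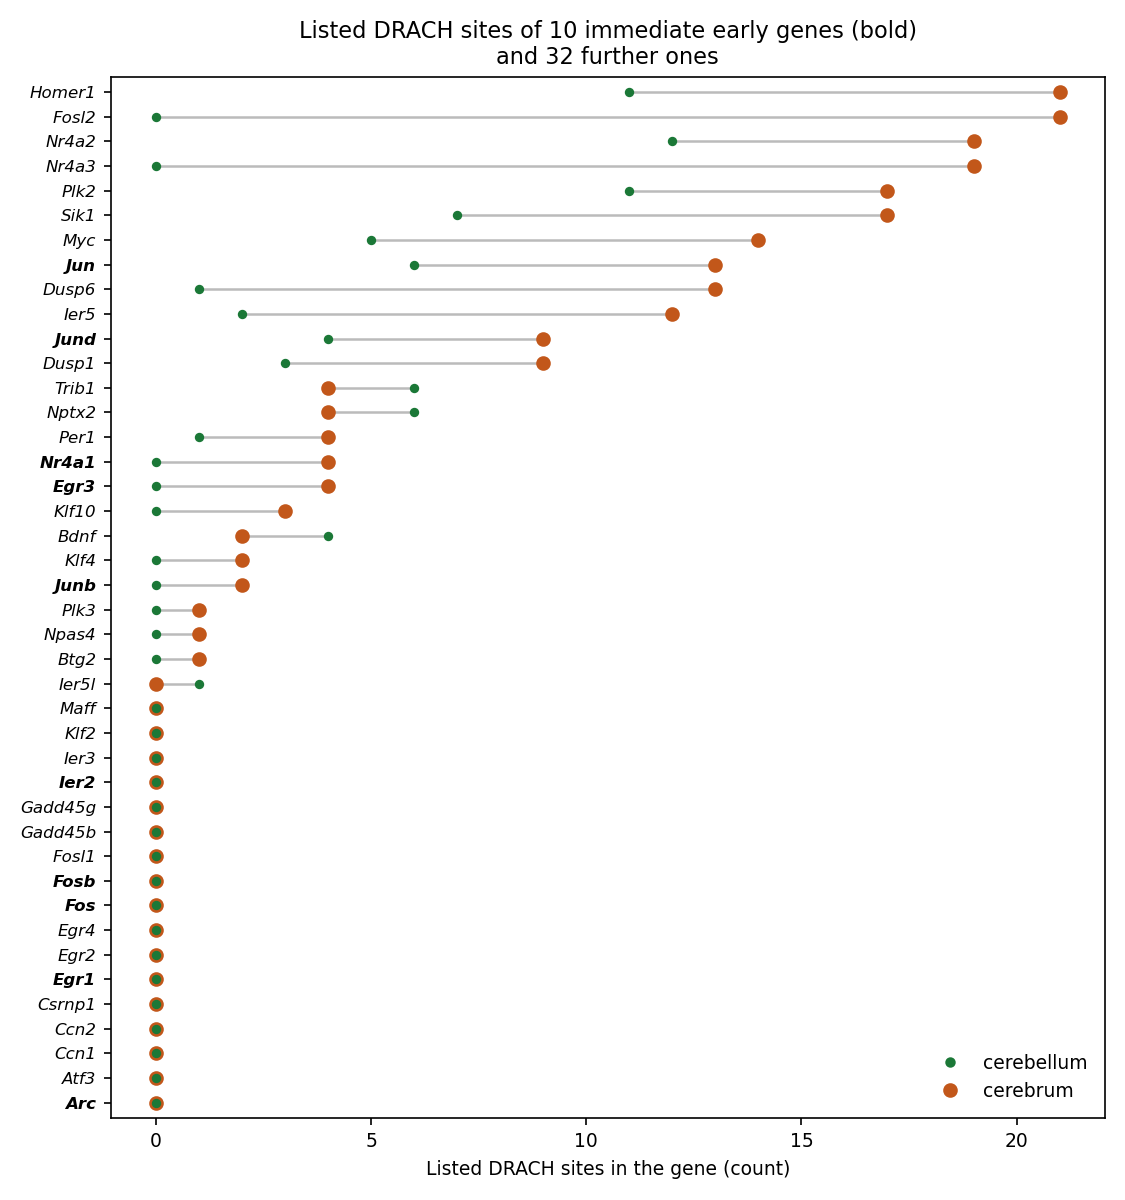
Number of listed DRACH sites (x axis) in the 10 immediate early genes (bold) and 32 further ones (y axis), with small green points for the cerebellum library and larger orange points for the cerebrum library. The genes run from Homer1 and Fosl2, each with 21 in the cerebrum, down to those at 0 in both libraries, where both points coincide.

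Genes that act on immediate early genes or on their mRNAs were counted in the same way. Of 22 regulators (serum response factor, its partners, CREB, MEF2 and upstream kinases), 20 had a DRACH site in the cerebellum, against 35% of all coding genes, and 21 in the cerebrum, against 45.2%. Elk3 and Rps6ka1 were listed at DRACH in the cerebrum alone, and Mapk3 in the cerebellum alone. The highest cerebrum count was 44 in Crebbp, a coactivator of CREB, followed by 26 in Rps6ka5 and 22 in Mef2a. Of 10 decay factors of AU-rich or m6A-marked mRNAs, 9 had a DRACH site in the cerebellum, against 35% of all coding genes. The same 9 had one in the cerebrum, against 45.2%. They included Ythdf2, the m6A reader known for mRNA decay, with 18 and 26. Zfp36, the gene of tristetraprolin and itself an immediate early gene, had 0 sites in either.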

How the data were processed

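The deposited files, made by the authors, give a genomic position and strand for each m6A site, in BED format. Per the methods, GLORI-tools was run by the authors against mm10 and against PWK-mm10, in which SNPs carry the PWK base, and the calls of a library were merged and filtered to a rate above 0.1 and a read count above 8. These filters make a listed site depend on expression and depth. Tissues were taken from the sample records.

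Positions were looked up in GRCm38, the assembly of mm10, and in GENCODE M21 gene models, which is not the release the authors used. Regions, motifs and distances used the longest coding isoform. Shares have 95% Wilson intervals, and no test was made, because each tissue had 1 library. The 10 genes, the gene lists and the comparisons were chosen with earlier results of these data known. The 10 genes are all named. Of the further lists, genes unlisted in at least 1 library and the 3 with the most DRACH sites may be named, and some marker genes are not reported here by name. The position and region steps were tested on simulated data. Computations used Python 3.11.15, scipy 1.17.1, pysam 0.24.0 and Biopython 1.88, and figures matplotlib 3.10.9.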

Additional observations from a re-analysis of the deposited data

How the results depend on the processing

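Of 43 values recomputed under another setting, 37 stayed within the 95% interval of the reported share or within 1.5 times the reported count, and 6 did not. With sites listed in both libraries only, the cerebrum count fell from 44 to 10 and the DRACH share was 90% in each library, both by construction on the same 10 sites. With DRACH sites only, the share of cerebellum sites also listed in the cerebrum was 90%. With a window of 400 nt instead of 200 nt around the stop codon, the share of DRACH sites inside it was 70% instead of 40% in the cerebellum and 53.3% instead of 30% in the cerebrum, as a wider window holds more sites. The junction distance gave no value in the cerebellum, where no gene with introns had a site. No paired analysis was possible because each tissue had 1 library. Depth is unknown, so that a gene without a site cannot be read as unmethylated, and the cerebrum library listed more sites in all, so a site listed there alone was not shown to differ between the tissues.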
